A study of Rattus norvegicus with 28 samples.

Results

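Caspases, members of the BCL2 family and other regulators of apoptosis were followed in the gastrocnemius of rats kept under neuromuscular blockade for up to 14 days. The set was chosen by symbol. It takes probe sets of the deposited table whose gene symbol starts with Casp and a number, or is 1 of 33 listed apoptosis genes. The members described are 41 genes on 45 of the 26208 probe sets. Bbc3, the BH3-only protein PUMA, was not found under that symbol and is not analysed here. The 9 Casp symbols described are 8 caspases and Casp8ap2, which encodes a protein that binds caspase-8 and is no protease.

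All rats were female Sprague-Dawley. The 23 rats of the ventilated groups were anaesthetised with isoflurane, mechanically ventilated and paralysed by infusion of α-cobrotoxin, from cobra venom, which occupies the acetylcholine receptors of the endplate, and they form the groups 6h-4d (13 rats), 5-8d (4 rats) and 9-14d (6 rats). The 5 control rats were sham-operated, breathed spontaneously under isoflurane, were not paralysed and were killed soon after surgery, so that blockade, ventilation, sedation and elapsed time cannot be told apart in a comparison with them. The source description of the control samples also mentions blockade and ventilation, but their titles and sample type say control, and that reading was followed. The design text lets the middle group run to 9 days where the sample labels say 5-8 days, the ages of the rats are not given in the labels, and each sample was a whole piece of the proximal gastrocnemius, with all its cell types.

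Apoptosis runs along converging routes. In the mitochondrial route, BH3-only proteins relieve the brake of pro-survival BCL2 proteins on BAX and BAK, which then open the outer mitochondrial membrane. Released cytochrome c assembles APAF1 into the apoptosome, which activates the initiator caspase-9, and caspase-9 cleaves the executioner caspases. In the extrinsic route, ligand-bound death receptors such as FAS recruit FADD and caspase-8, while inhibitor of apoptosis proteins bind caspases and are themselves removed by SMAC (Diablo) and HTRA2. The inflammatory caspases 1, 4 and 12 belong to the response of immune cells to infection and damage. Muscle fibres hold many nuclei, so loss of single nuclei need not kill a fibre.

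The table gives, for every probe set, the log2 change of each duration group against the control group and its adjusted p-value. Values of single rats and absolute levels were not used here, so spread is given as the standard error (SE) recovered from the table, and a log2 change of 1 is a doubling. The within-group SD of the member probe sets had a median of 0.244 and ranged from 0.138 to 0.763, against a median of 0.203 over the whole table. Nothing in the labels says whether rats shared a batch. An adjusted p under 0.05 is called passing, "up-regulated" and "down-regulated" are used only of passing values, and -0.012, -0.042 and -0.072 were the median log2 changes of all probe sets at 6h-4d, 5-8d and 9-14d.

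Upstream sequence was taken from RefSeq (build GRCr8) for the members with the most distinct time courses, so that members that moved together can be set side by side. A total of 31 member genes matched an entry, and 12 short motifs were searched on both strands in the 250 bases before the annotated start. Capitals mark every motif match. Casp1 (chr8:10872580-10872829, plus strand) and Casp12 (chr8:10926938-10927187, plus strand) are shown because they belong to 1 cluster of inflammatory caspase genes and were both up-regulated at 9-14d. Casp4, which lies between them, was not among the matched entries. Dapk1 (chr17:4096582-4096831, minus strand) and Bcl2 (chr13:23366901-23367150, minus strand) are shown because they were the only members to pass at 6h-4d.
Casp1: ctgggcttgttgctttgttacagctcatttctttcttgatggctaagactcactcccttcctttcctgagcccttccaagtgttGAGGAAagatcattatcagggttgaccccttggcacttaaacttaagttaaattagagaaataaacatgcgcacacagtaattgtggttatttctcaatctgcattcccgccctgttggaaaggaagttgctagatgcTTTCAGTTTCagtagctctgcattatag
Casp12: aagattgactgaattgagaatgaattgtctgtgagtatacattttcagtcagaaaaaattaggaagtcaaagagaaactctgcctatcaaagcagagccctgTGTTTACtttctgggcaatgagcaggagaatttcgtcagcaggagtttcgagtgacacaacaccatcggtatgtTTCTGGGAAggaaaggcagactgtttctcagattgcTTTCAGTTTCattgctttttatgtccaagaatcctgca
Dapk1: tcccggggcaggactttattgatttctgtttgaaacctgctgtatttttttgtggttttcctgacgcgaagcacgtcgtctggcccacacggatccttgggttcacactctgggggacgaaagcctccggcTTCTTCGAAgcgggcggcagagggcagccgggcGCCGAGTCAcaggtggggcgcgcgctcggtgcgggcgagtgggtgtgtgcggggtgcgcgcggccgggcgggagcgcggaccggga
Bcl2: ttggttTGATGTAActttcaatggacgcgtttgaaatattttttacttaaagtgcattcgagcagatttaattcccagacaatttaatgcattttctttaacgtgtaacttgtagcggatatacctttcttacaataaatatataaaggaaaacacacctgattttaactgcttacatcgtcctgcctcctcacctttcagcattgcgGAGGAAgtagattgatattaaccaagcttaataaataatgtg
The interferon regulatory factor motif, GAAA followed by GAAA with 2 free bases between them, was present in the Casp1 and Casp12 windows and in no other of the member windows. The matching letters were the same in both, TTTCAGTTTC on the strand shown, and began 28 bases before the start in Casp1 and 38 bases before it in Casp12. The same motif occurred in 3.41% of the 33469 windows searched. Casp12 also held the STAT motif TTCNNNGAA, found in 7.67% of all windows and shared with Dapk1 and Bad, and the FOXO motif GTAAACA, found in 3.21% and shared with Bad and Bcl2l11. Casp1 held the ETS motif GAGGAA (23.3% of all windows), which Bcl2 held too. Bcl2 also held the ATF4 motif TGATGNAA (1139 of the windows searched), and Dapk1 the NRF2 motif TGACNNNGC (10.1%). The p53 motif searched, CATG followed by CATG with 6 free bases between them, was in 0 of the 31 member windows and in 0.362% of all windows.

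More members were up-regulated than down-regulated from 5-8d on. At 6h-4d, 2 of the 45 probe sets were up-regulated and 0 were down-regulated by the deposited limma test. Of all probe sets, 1.49% were higher and 2.06% lower. By the same test 9 of the 45 had an unadjusted p under 0.05, a share similar to that of the table (4409 of 26208). At 5-8d, 15 were up-regulated and 1 down-regulated, 33.3% and 2.22% of the members, against 14.9% and 11.4% of the table. At 9-14d, 21 were up-regulated and 3 down-regulated, 46.7% and 6.67% of the members, against 17.3% and 18.2% of the table. The member list holds genes that the paper had reported as up-regulated in these rats: Pdcd6, Siva1, Bid, Cidea, Aatf, Nol3 and Bcl2a1d. Part of the excess over the table can therefore come from how the list was made, and the shares are no independent test. The median log2 change of the 45 probe sets was 0.049, 0.26 and 0.31 at the 3 durations in turn. Casp1, Casp4, Casp6, Casp12, Bcl2a1d, Bik, Aifm1 and 1 of the Diablo probe sets passed at 9-14d and not at 5-8d, and none of these differed between 5-8d and 9-14d by the test given below. The 3 comparisons share the 5 control rats. At 6h-4d the count rests on the adjustment, since adjusting the 3 comparisons jointly gave 6 passing probe sets, 5 higher and 1 lower, and a threshold of 0.01 gave 0.

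Most changes were small. With a minimum of 2-fold added, 1 member probe set passed at 6h-4d, 7 at 5-8d and 7 at 9-14d, against 0.549%, 5.21% and 5.12% of the table. At the later durations these were, apart from Endog, genes that the paper's text had named as up-regulated. In all, 26 probe sets of 24 genes passed at some duration, and 19 probe sets of 17 genes at none. The share of the whole table passing at some duration was not counted. At 9-14d alone, 53.3% of the members and 35.5% of the table passed in either direction.

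**Figure D1:**
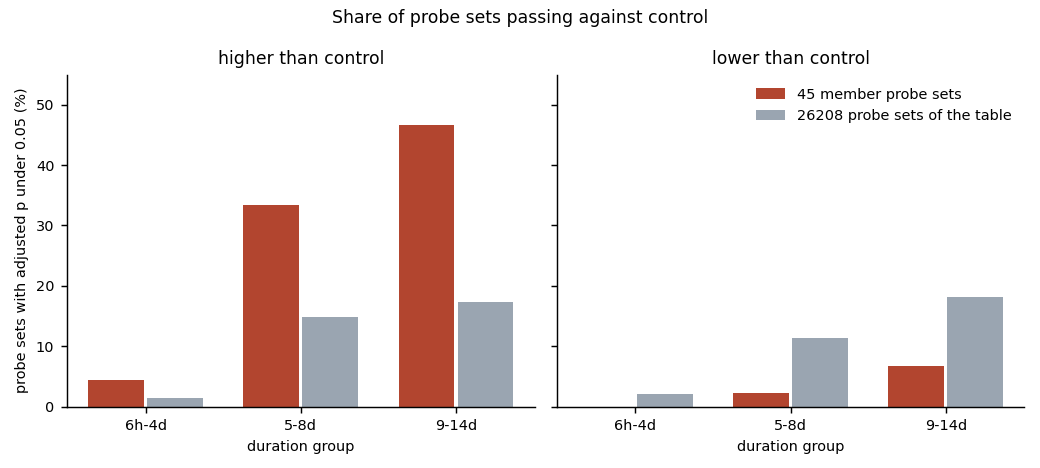
Percent of the 45 member probe sets and of all 26208 probe sets with an adjusted p under 0.05 against control, by duration group, split into higher (left) and lower (right). The member share among higher probe sets was 46.7% at 9-14d against 17.3% of the table, and among lower ones 6.67% against 18.2%. The member list holds genes that the paper had already reported as up-regulated in these rats.

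**Figure D2:**
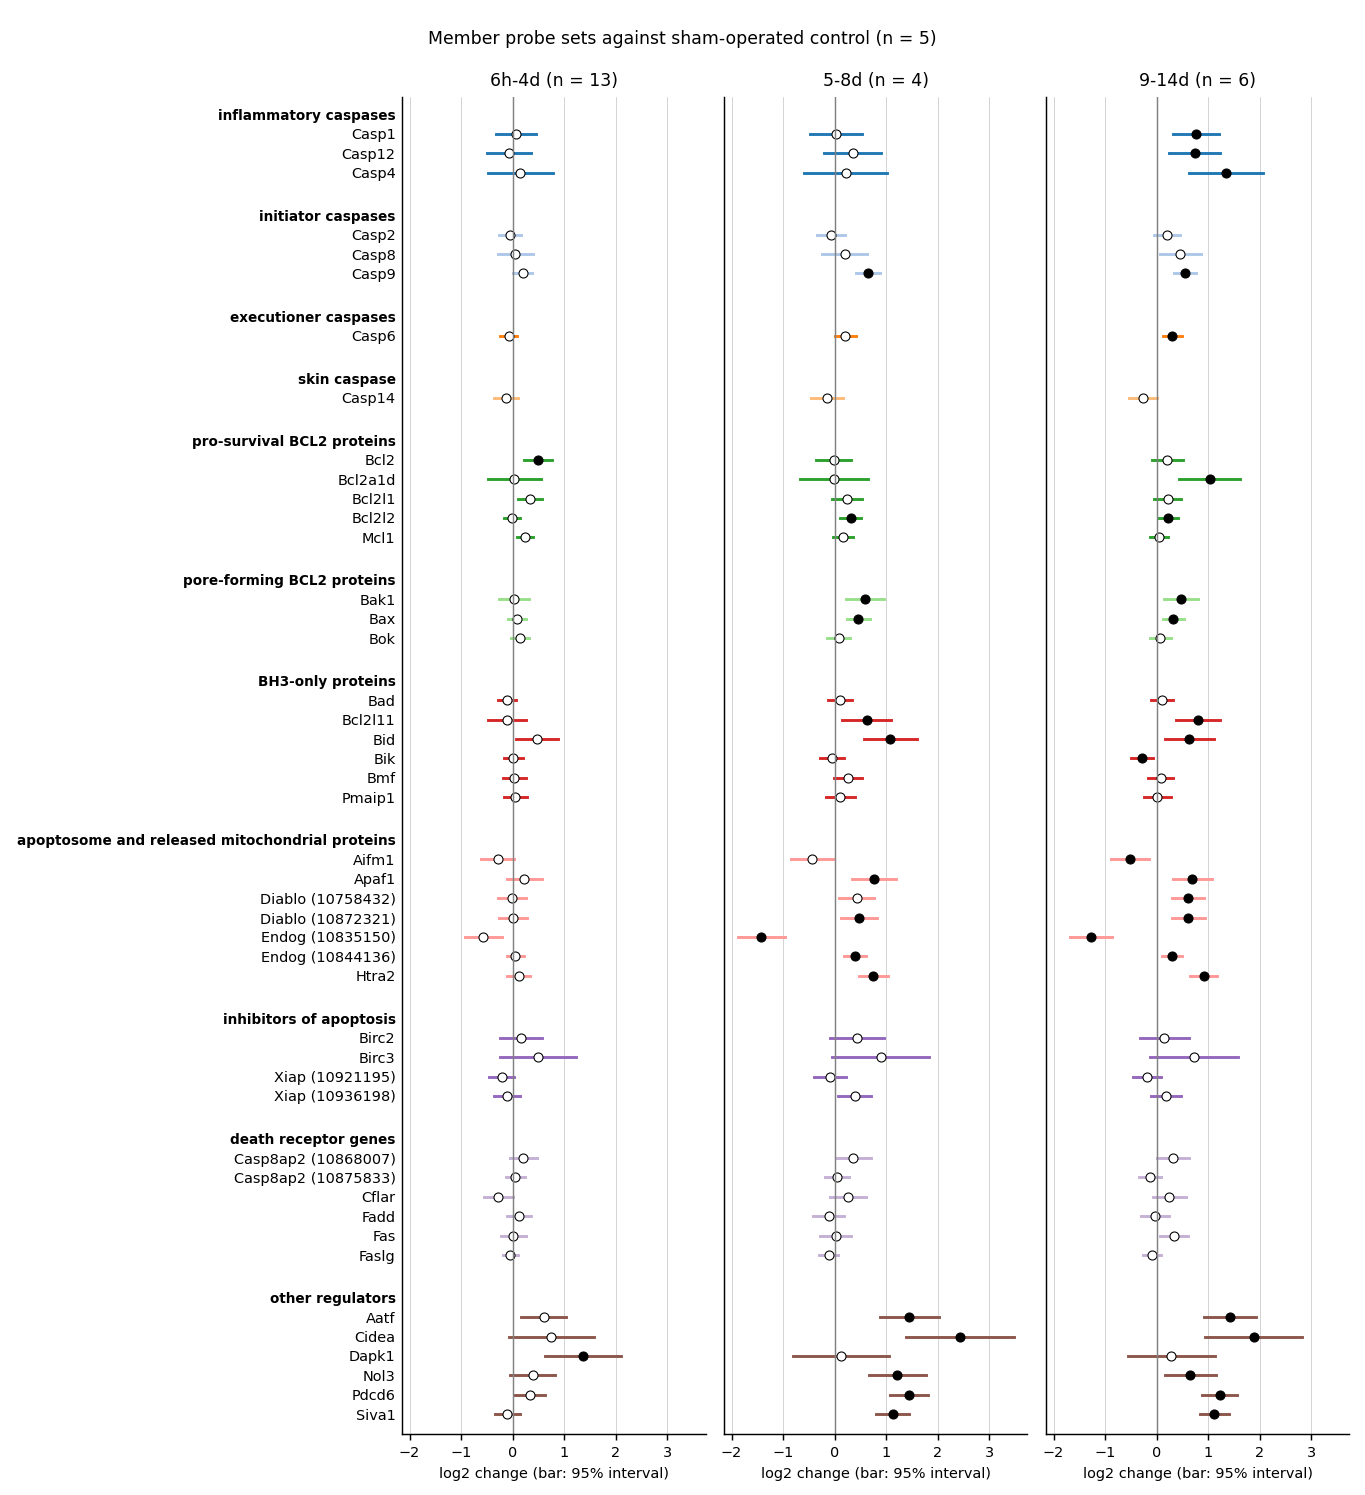
Log2 change of each member probe set against the 5 control rats, with its 95% interval, for the 3 duration groups, ordered by role. Filled points have an adjusted p under 0.05. The filled points are 2 at 6h-4d, 16 at 5-8d and 24 at 9-14d.

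The inflammatory caspases were up-regulated at 9-14d alone. Casp4, the sensor caspase for intracellular lipopolysaccharide, had log2 changes of 0.14 ± 0.31 at 6h-4d, 0.22 ± 0.39 at 5-8d and 1.35 ± 0.35 at 9-14d (SE), which is 2.54-fold at 9-14d with an adjusted p of 0.00416. Casp1, the protease that matures interleukin-1β, stood at 0.068 ± 0.19 at 6h-4d, 0.029 ± 0.24 at 5-8d and 0.76 ± 0.22 at 9-14d, 1.70-fold with an adjusted p of 0.00816. Casp12, a relative tied to the endoplasmic reticulum in rodents, stood at -0.079 ± 0.21 at 6h-4d, 0.35 ± 0.27 at 5-8d and 0.74 ± 0.24 at 9-14d, 1.67-fold with an adjusted p of 0.0179. None of the 3 passed before 9-14d, and 0 of them passed in 9-14d against 5-8d, where 2 had an unadjusted p under 0.05. Against 6h-4d all 3 were higher at 9-14d, by 0.69 to 1.20 on the log2 scale.

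Macrophage genes moved at the same time. Of 12 macrophage and monocyte markers measured, 1 was up-regulated at 6h-4d and 0 at 5-8d (limma, 0 at an unadjusted p under 0.05). At 9-14d 9 were, 75% against 17.3% of the table, and the 12 log2 changes ran from 0.64 to 1.80. Cd68 stood at -0.011 at 5-8d and 1.51 at 9-14d (adjusted p = 0.0102). The part of these cells in the rise of the inflammatory caspases was not tested, and in whole muscle a change in the number of cells of a type and in the RNA per cell cannot be told apart.

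Casp1, Casp4 and Casp12 lie side by side. By the table's annotation (rat build RGSC 3.4) their probe sets span chr8:2027408-2110511 on the plus strand, 83104 bases that hold these 3 probe sets and no other. Casp4 lies between the other two, with gaps of 1735 bases to Casp1 and 7215 bases to Casp12. Members also neighbour one another at Cflar and Casp8 on chromosome 9 (27894 bases apart) and at Birc2 and Birc3 on chromosome 8 (14097 bases apart), and none of those 4 genes passed against control. Positions of other members below use the same build.

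Casp9 was the one caspase of the 8 to be up-regulated at both later durations. This initiator, activated on the apoptosome, had log2 changes of 0.20 ± 0.088 at 6h-4d, 0.65 ± 0.11 at 5-8d and 0.55 ± 0.10 at 9-14d, with adjusted p-values of 8.23e-05 at 5-8d and 0.000120 at 9-14d. It did not reach 2-fold at either. Casp8, the initiator of the death receptor route, stood at 0.051 ± 0.17 at 6h-4d, 0.19 ± 0.21 at 5-8d and 0.46 ± 0.19 at 9-14d, and missed the threshold at 9-14d with an adjusted p of 0.0663 (0.0369 after centring each comparison on its median). Casp2, an initiator linked to DNA damage, stayed within -0.073 to 0.20 and passed at no duration against control.

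Casp6, the executioner that cleaves lamin A, stood at -0.080 ± 0.081 at 6h-4d, 0.21 ± 0.10 at 5-8d and 0.31 ± 0.093 at 9-14d and passed at 9-14d alone (adjusted p = 0.0111). Casp14, the caspase of skin cornification, ran from -0.27 to -0.13 and did not pass. Of the 8 caspases, then, 0 passed at 6h-4d (limma, 1 at an unadjusted p under 0.05), 1 was up-regulated at 5-8d and 5 at 9-14d, and their median log2 change was -0.0042, 0.20 and 0.50. The up-regulated share was 12.5% at 5-8d, near the 14.9% of the table. At 9-14d it was 62.5%, against 17.3% of the table.

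Among the pro-survival BCL2 proteins, Bcl2 and Bcl2a1d moved at opposite ends of the time course. Bcl2, the founding member, had log2 changes of 0.49 ± 0.13 at 6h-4d, -0.021 ± 0.16 at 5-8d and 0.21 ± 0.15 at 9-14d. It was up-regulated at 6h-4d alone, 1.40-fold with an adjusted p of 0.0286, and the difference of 5-8d from 6h-4d was -0.51 (adjusted p = 0.00798). The difference of 9-14d from 6h-4d, -0.28, did not pass (adjusted p = 0.0667). Bcl2a1d, the A1 protein best known from blood cells, stood at 0.032 ± 0.25 at 6h-4d, -0.017 ± 0.32 at 5-8d and 1.04 ± 0.29 at 9-14d, 2.05-fold at 9-14d with an adjusted p of 0.00641. Its probe set also names Mthfs, with 23 of 26 probes matching Bcl2a1d. The rise came in the same group as the macrophage markers above, and their part in it was not tested.

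Bcl2l2, which encodes BCL-W, changed least among the genes that passed at both later durations. It stood at -0.014 ± 0.077 at 6h-4d, 0.31 ± 0.10 at 5-8d and 0.23 ± 0.089 at 9-14d, with adjusted p-values of 0.0181 and 0.0458 at the later durations (the latter 0.0666 when adjusted jointly), and its probe set is shared with the neighbouring Pabpn1. Bcl2l1, which encodes BCL-XL, stayed between 0.21 and 0.34 and did not pass. The Mcl1 probe set (0.043 to 0.24, none passing) has 3 of 24 probes matching that gene and says little about it.

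Of the genes of the 3 pore-forming proteins, the probe sets of Bak1 and Bax were up-regulated and that of Bok was not. Bak1 stood at 0.029 ± 0.14 at 6h-4d, 0.59 ± 0.18 at 5-8d and 0.47 ± 0.16 at 9-14d, with adjusted p-values of 0.0151 at 5-8d and 0.0252 at 9-14d. Bax stood at 0.077 ± 0.086 at 6h-4d, 0.46 ± 0.11 at 5-8d and 0.33 ± 0.10 at 9-14d, with adjusted p-values of 0.00207 and 0.0113. The Bax probe set (chr10:90628108-90628686) is marked as cross-hybridising and 25 of 36 probes match the transcript. How far it reads Bax alone was not tested. Bok, whose product resembles BAX, ranged from 0.071 to 0.14. None of these reached 2-fold.

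Of the 6 BH3-only genes, 2 were up-regulated at both later durations and 1 was down-regulated at 9-14d. The up-regulated share was 33.3%, against 14.9% of the table at 5-8d and 17.3% at 9-14d. The down-regulated share at 9-14d, 16.7%, lies near the 18.2% of the table. Bid, whose protein caspase-8 cleaves to pass the death signal to mitochondria, was highest in the middle group, with log2 changes of 0.48 ± 0.20 at 6h-4d, 1.08 ± 0.25 at 5-8d and 0.64 ± 0.23 at 9-14d. It was 2.12-fold higher than control at 5-8d (adjusted p = 0.00196) and 1.55-fold at 9-14d (adjusted p = 0.0320), and the 95% interval of the difference between these groups ran from -0.95 to 0.054. Bcl2l11, which encodes BIM, stood at -0.12 ± 0.18 at 6h-4d, 0.62 ± 0.23 at 5-8d and 0.81 ± 0.21 at 9-14d, with adjusted p-values of 0.0470 (0.0547 when the 3 comparisons were adjusted jointly) and 0.00340. Bik was down-regulated at 9-14d, at -0.29 ± 0.10 (adjusted p = 0.0290), but with each comparison centred on its median the value was -0.22 and the adjusted p 0.106. Bad, Bmf and Pmaip1 (NOXA) passed at no duration, with log2 changes between -0.11 and 0.26.

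Genes of the apoptosome and of proteins that mitochondria release changed in both directions. Apaf1, the scaffold of the apoptosome, had log2 changes of 0.23 ± 0.16 at 6h-4d, 0.77 ± 0.21 at 5-8d and 0.69 ± 0.19 at 9-14d, with adjusted p-values of 0.00632 and 0.00512 at the later durations. Htra2, a mitochondrial protease that binds inhibitor of apoptosis proteins once released, stood at 0.12 ± 0.11 at 6h-4d, 0.75 ± 0.14 at 5-8d and 0.91 ± 0.12 at 9-14d, with adjusted p-values of 0.000153 and 1.89e-06. Diablo, which encodes SMAC, was up-regulated at 9-14d on both probe sets that carry its symbol. The probe set on chromosome 12 stood at -0.010 ± 0.13 at 6h-4d, 0.43 ± 0.17 at 5-8d and 0.61 ± 0.15 at 9-14d (adjusted p = 0.0589 at 5-8d and 0.00228 at 9-14d), and the probe set on chromosome 5, where all 25 probes match Diablo, stood at 0.0080 ± 0.13 at 6h-4d, 0.47 ± 0.17 at 5-8d and 0.62 ± 0.15 at 9-14d (adjusted p = 0.0406 and 0.00267). RefSeq (build GRCr8) places Diablo on chromosome 12, where 30 of 31 probes match, so the probe set on chromosome 5 lies away from the gene. Both Diablo probe sets are marked as cross-hybridising, and how far they read different transcripts was not tested.

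Endog, a mitochondrial nuclease (probe set at chr3:9184023-9187524), was the member with the deepest fall. The probe set with all 25 probes matching Endog stood at -0.57 ± 0.18 at 6h-4d, -1.42 ± 0.22 at 5-8d and -1.27 ± 0.20 at 9-14d, which is 2.68-fold lower at 5-8d (adjusted p = 2.38e-05) and 2.42-fold lower at 9-14d (adjusted p = 1.68e-05). Its value at 6h-4d had an adjusted p of 0.0659. The other probe set under this symbol went the opposite way, at 0.049 ± 0.082 at 6h-4d, 0.39 ± 0.11 at 5-8d and 0.30 ± 0.095 at 9-14d, with 0.00558 and 0.0166 as adjusted p-values of the later groups. Only 2 of 32 probes match Endog, so that it is a poor measure of this gene. Both probe sets also name LOC499770, and with only probe sets that name 1 gene the members down-regulated at 5-8d number 0 in place of 1. Aifm1, the flavoprotein known as apoptosis-inducing factor, stood at -0.29 ± 0.16 at 6h-4d, -0.45 ± 0.20 at 5-8d and -0.52 ± 0.18 at 9-14d and was down-regulated at 9-14d (adjusted p = 0.0242), a call lost after centring on the median (-0.45, adjusted p = 0.0536).

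Among the members, no inhibitor of apoptosis gene (Birc2, Birc3 or Xiap) passed against control at any duration by the limma test. Birc3, which encodes cIAP2, had the largest values of these, 0.49 ± 0.36 at 6h-4d, 0.89 ± 0.46 at 5-8d and 0.72 ± 0.42 at 9-14d, but with an SD of 0.690 its 95% interval at 5-8d ran from -0.055 to 1.84. Birc2, which encodes cIAP1, stood at 0.16, 0.43 and 0.15. The well-matched Xiap probe set stood at -0.10, 0.39 and 0.19, with an adjusted p of 0.0725 at 5-8d (0.0453 after centring). The other Xiap probe set (-0.22, -0.090 and -0.18) has 8 of 36 probes matching Xiap and also names Aplp2. Of these 4 probe sets, 0, 1 and 0 had an unadjusted p under 0.05 at the 3 durations in turn.

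The death receptor genes did not pass against control either. Fas, the receptor, stood at 0.011 ± 0.12 at 6h-4d, 0.016 ± 0.15 at 5-8d and 0.33 ± 0.14 at 9-14d and came nearest, with an adjusted p of 0.0536 at 9-14d (0.0213 after centring). Its ligand Faslg stayed between -0.12 and -0.048, and the adaptor Fadd between -0.12 and 0.12. Cflar, the decoy that keeps caspase-8 inactive, stood at -0.28 ± 0.14 at 6h-4d, 0.26 ± 0.17 at 5-8d and 0.25 ± 0.16 at 9-14d. Casp8ap2 reached 0.36 on its well-matched probe set (adjusted p = 0.117 at 5-8d, and 0.0947 at 9-14d or 0.0453 after centring), while the other, with 1 of 27 probes matching and naming Gja10, ran from -0.14 to 0.052. Of these 6 probe sets, 0, 1 and 2 had an unadjusted p under 0.05 at the 3 durations.

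The largest rises among the members were in the group of other regulators. Of this group, Cidea, Pdcd6, Siva1, Aatf and Nol3 had been reported by the paper as up-regulated in these rats. Their rank among the members can therefore follow from how the list was made. Cidea (chr18:63871542-63896977), a CIDE protein known from lipid droplets and from DNA fragmentation, had log2 changes of 0.75 ± 0.40 at 6h-4d, 2.43 ± 0.51 at 5-8d and 1.88 ± 0.46 at 9-14d, which is 5.37-fold at 5-8d (adjusted p = 0.000703) and 3.68-fold at 9-14d (adjusted p = 0.00233). It also had the widest spread of the members, with an SD of 0.763. Of 8 fat cell markers, 0 passed at 5-8d (limma, 0 at an unadjusted p under 0.05), with a median of 0.23. At 9-14d 1 was up-regulated, 12.5% against 17.3% of the table, with a median of 0.29.

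Pdcd6, Aatf and Siva1 were up-regulated more than 2-fold at both later durations. Pdcd6 (chr1:29769973-29785578), the calcium-binding protein ALG-2, stood at 0.33 ± 0.14 at 6h-4d, 1.44 ± 0.18 at 5-8d and 1.22 ± 0.16 at 9-14d, with adjusted p-values of 9.69e-07 and 1.17e-06. Siva1 (chr6:137631376-137635724), which binds death receptors of the tumour necrosis factor family, stood at -0.10 ± 0.12 at 6h-4d, 1.13 ± 0.15 at 5-8d and 1.12 ± 0.14 at 9-14d, with adjusted p-values of 3.53e-06 and 3.94e-07. The 95% interval of the difference of Siva1 between the later groups ran from -0.31 to 0.30. Aatf (chr10:72701724-72794495), known for opposing apoptosis in the nucleus, stood at 0.60 ± 0.22 at 6h-4d, 1.45 ± 0.28 at 5-8d and 1.43 ± 0.25 at 9-14d, with adjusted p-values of 0.000230 and 6.18e-05. Nol3, the CARD-containing repressor of apoptosis abundant in heart and skeletal muscle, was highest at 5-8d, with 0.39 ± 0.21 at 6h-4d, 1.21 ± 0.27 at 5-8d and 0.65 ± 0.24 at 9-14d and adjusted p-values of 0.00122 and 0.0374 (the latter 0.0547 when adjusted jointly).

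Dapk1 had the reverse time course. This calmodulin-dependent death kinase (chr17:9617607-9779457) had log2 changes of 1.37 ± 0.36 at 6h-4d, 0.12 ± 0.46 at 5-8d and 0.29 ± 0.41 at 9-14d. It was 2.58-fold up-regulated at 6h-4d (adjusted p = 0.0292) and the differences from 6h-4d were -1.24 at 5-8d (adjusted p = 0.0211) and -1.08 at 9-14d (adjusted p = 0.0142). The 6h-4d group joins rats from hours to days of blockade, and a course within it cannot be read from the table.

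**Figure D3:**
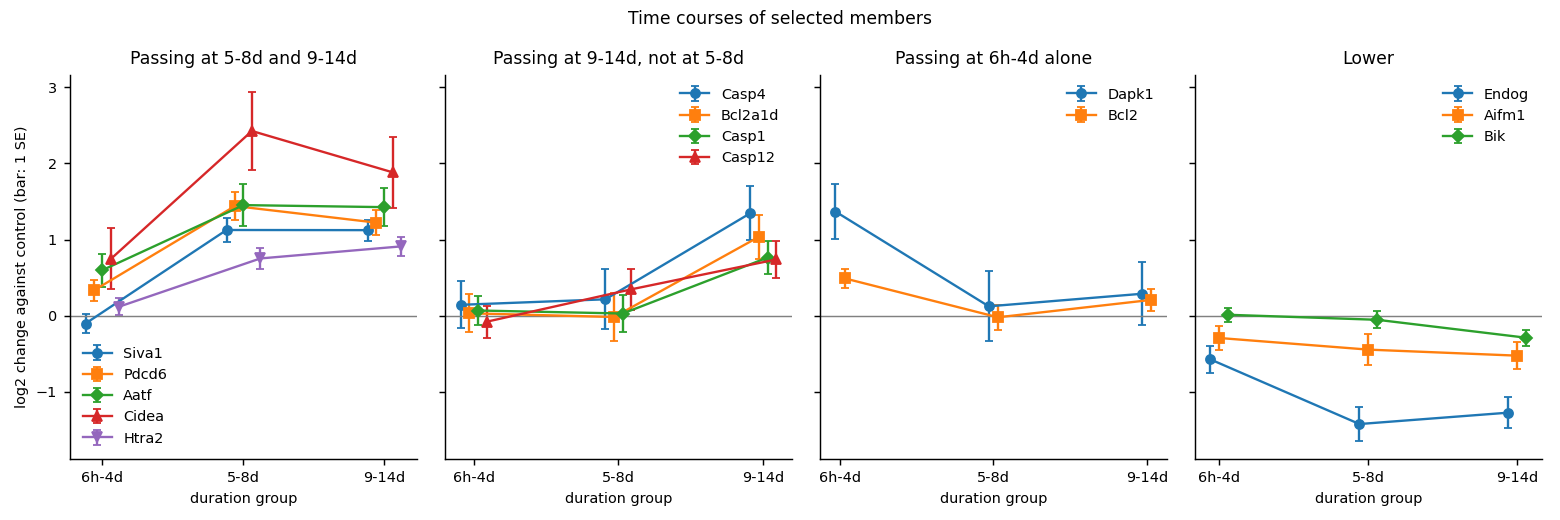
Log2 change against control, with 1 SE, by duration group for 14 members in 4 panels: 5 that passed at 5-8d and 9-14d, 4 that passed at 9-14d and not at 5-8d, the 2 that passed at 6h-4d alone, and 3 that were lower. Dapk1 starts at 1.37 and Casp4 ends at 1.35, and Endog is drawn from its well-matched probe set.

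The durations were then compared with one another, which sets aside the control group. From 6h-4d to 5-8d, 19 of the 45 probe sets were higher and 3 lower, where 13.6% and 7.64% of the table passed. From 6h-4d to 9-14d, 24 were higher and 4 lower, where 18.1% and 17.4% of the table passed. From 5-8d to 9-14d, 0 passed in either direction by a moderated test computed from the deposited values. Of the table, 0.305% was higher and 0.103% lower. By this test 7 of the 45 had an unadjusted p under 0.05, a share similar to that of the table (3472 of 26208). Those 7 were Casp1, Casp2, Casp4, Bcl2a1d and Fas, higher at 9-14d, and Bik and Nol3, lower. The lowest adjusted p among them was 0.112, for Bcl2a1d at 1.05 ± 0.31, and the 95% interval of Casp4 ran from 0.36 to 1.90.

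Against 6h-4d, most caspases were higher at 9-14d. At 9-14d, 7 of the 8 caspases were higher than at 6h-4d, all but Casp14, by 0.26 to 1.20 on the log2 scale. That is 87.5%, against 18.1% of the table. At 5-8d, 2 were higher than at 6h-4d, 25% against 13.6% of the table. These were Casp9 by 0.45 ± 0.10 (adjusted p = 0.000842) and Casp6 by 0.29 ± 0.088 (adjusted p = 0.0167). The lowest adjusted p among the members was that of Siva1, 1.23 ± 0.11 at 9-14d with an adjusted p of 1.42e-09. Cflar, which passed at no duration against control, was higher than at 6h-4d by 0.54 ± 0.15 at 5-8d (adjusted p = 0.00824) and by 0.52 ± 0.13 at 9-14d (adjusted p = 0.00216). Casp2, Casp8, Mcl1 (few probes matching), Bad, Xiap (well matched) and Fas likewise passed between durations and not against control, 7 probe sets with Cflar.

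**Figure D4:**
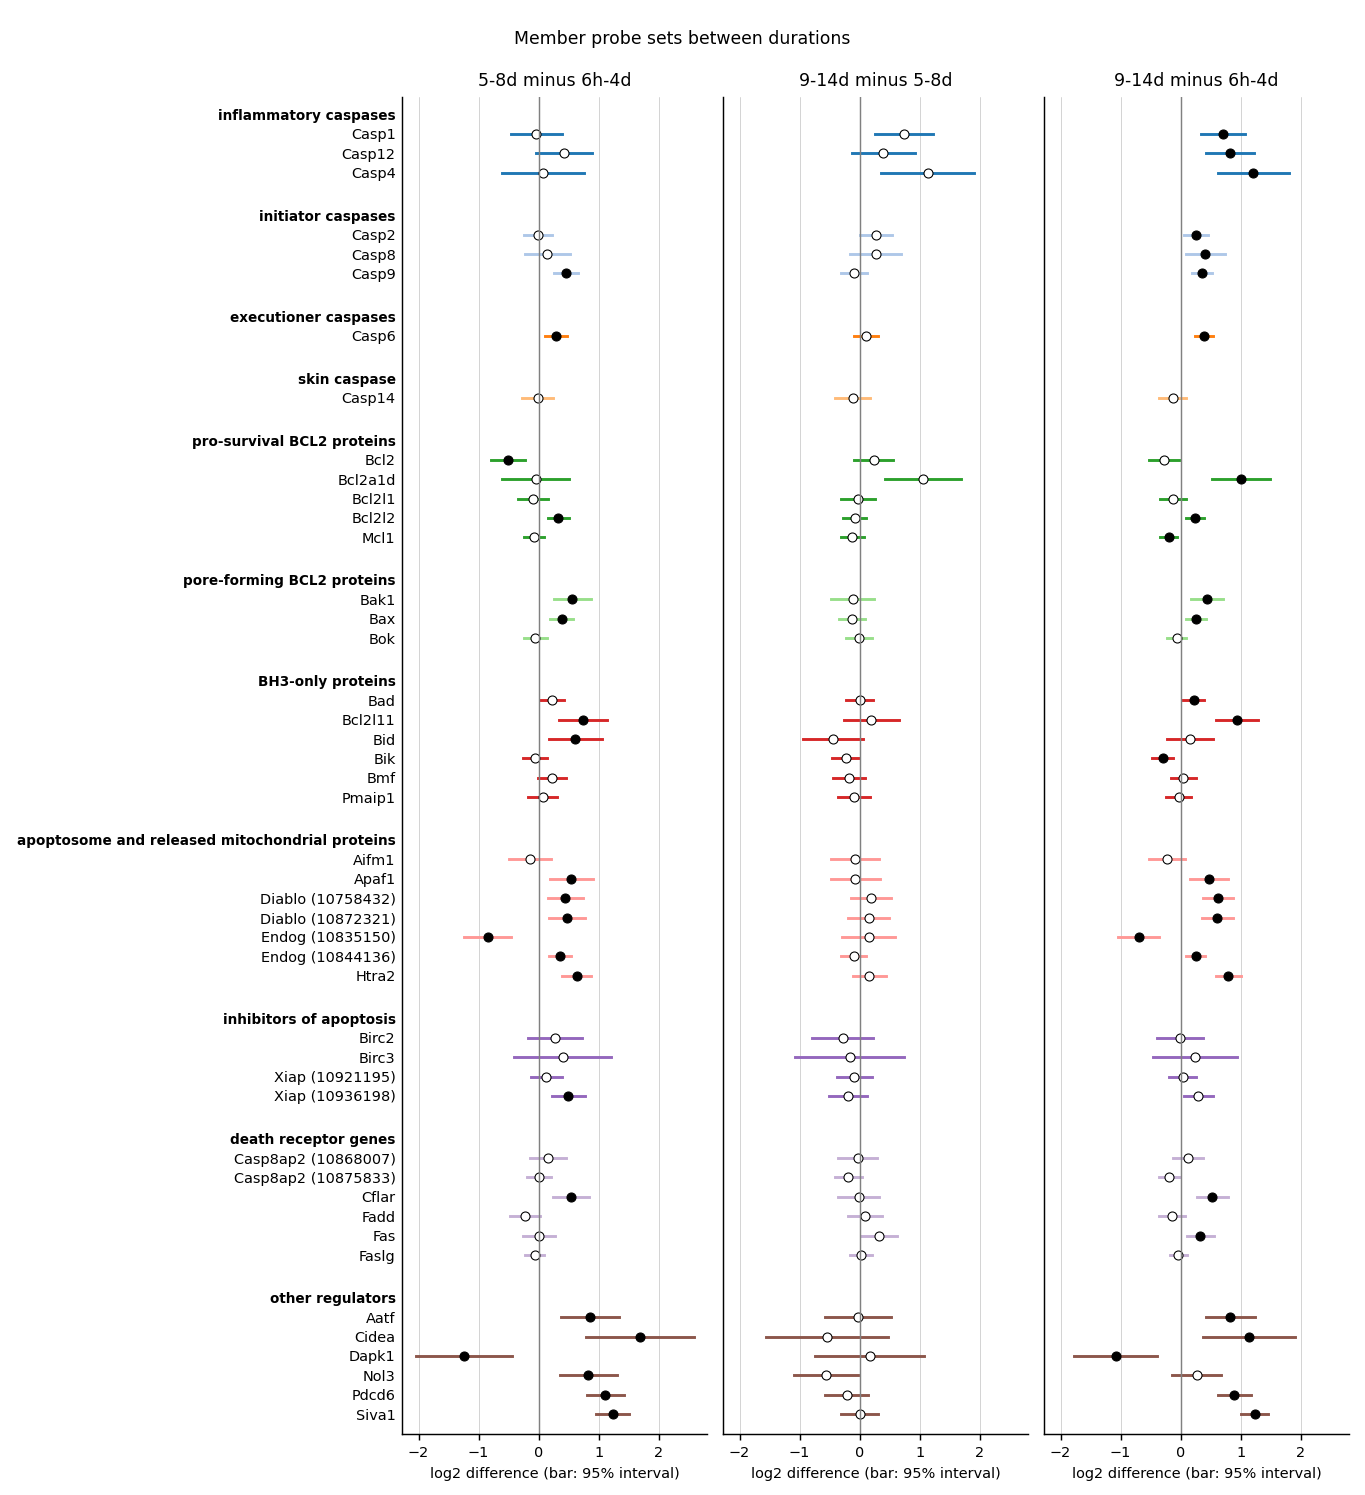
Log2 difference between duration groups for each member probe set, with its 95% interval, ordered by role. Filled points have an adjusted p under 0.05. They number 22 for 5-8d minus 6h-4d, 0 for 9-14d minus 5-8d and 28 for 9-14d minus 6h-4d.

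Other death-related genes, 196 on 10 lists that leave out the members, were measured on 196 probe sets for 184 of them. Of these probe sets, 11, 50 and 62 were up-regulated and 2, 32 and 29 down-regulated at the 3 durations in turn. At 9-14d that is 31.6% and 14.8%, against 17.3% and 18.2% of the table. The up-regulated shares of the engulfment, inflammasome, executioner substrate and other BCL2 family lists at 9-14d, 14.3% to 22.2%, lie near that of the table. The list of mitochondrial pore proteins and cytochrome c was mostly down-regulated. At 9-14d, 14 of its 20 probe sets were down-regulated, with a median of -0.51, among them Cycs, cytochrome c itself (-0.79 to -0.68 on its 3 probe sets), and Mfn2 (-0.78), while Slc25a5 (1.04) and Tspo (0.87) were up-regulated. A mixed list named other inhibitors of apoptosis such as Birc5 and Birc6, partners such as Traf2, and further genes such as Tmbim1 and Faim. Of its 12 probe sets, 9 were up-regulated at 5-8d and 8 at 9-14d, Traf2 (1.27) and Tmbim1 (1.01) most at 9-14d. These shares are 75% and 66.7%, against 14.9% and 17.3% of the table. Among the members, Birc2, Birc3 and Xiap did not pass. Of p53 and its targets, 10 of 22 were up-regulated at 9-14d and 2 down-regulated, with Gadd45a at 3.91, Cdkn1a at 2.75, Trp53inp2 at -1.11 and Sesn1 at -0.96.

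On the death receptor list, 8 of 22 were up-regulated at 9-14d and 1 at 5-8d, Eda2r (2.14) and Ripk2 (0.85) most at 9-14d, when Tnfrsf21 (-0.73) was down-regulated. The up-regulated shares were 36.4% at 9-14d, against 17.3% of the table, and 4.55% at 5-8d, against 14.9%. Of 17 inflammasome and pyroptosis genes, partners of the inflammatory caspases, 3 were up-regulated at 9-14d (17.6%, against 17.3% of the table), among them Il18 (0.99) and the adaptor Pycard (0.56), and Txnip (-0.61) was down-regulated. At 5-8d, 0 of the 17 were up-regulated and 2 down-regulated (limma, 4 at an unadjusted p under 0.05). The down-regulated share, 11.8%, lies near the 11.4% of the table at 5-8d. The list of executioner substrates and nucleases held 4 up-regulated and 2 down-regulated of 19, with Lmna at 1.05, Dnase2a at 0.53, Dffa, the inhibitor of the caspase-activated DNase, at -1.68 and Cideb at -0.39. Of 18 other BCL2 family and partner probe sets, 4 were up-regulated, Bcap31 (0.71) and Bag1 (0.66) most, and Hrk (-0.39) was down-regulated. Of 15 endoplasmic reticulum stress genes, 6 were up-regulated, Sdf2l1 (1.64) and Edem1 (1.23) most, and 3 down-regulated, among them Chac1 (-1.67) and Atf4 (-1.03). Of 21 engulfment probe sets, 2 were up-regulated and 8 down-regulated at 5-8d (median -0.48). These shares are 9.52% and 38.1%, against 14.9% and 11.4% of the table. At 9-14d 3 were up-regulated and 3 down-regulated, with Mertk at 0.68, Calr at 0.64, Dock1 at -0.60 and Itgav at -0.51. Of 30 other death-associated probe sets, 13 were up-regulated, Htatip2 (1.62) and Stk17b (1.19) most, and 2 down-regulated, Aifm2 (-0.51) and Stk24 (-0.49).

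**Figure D5:**
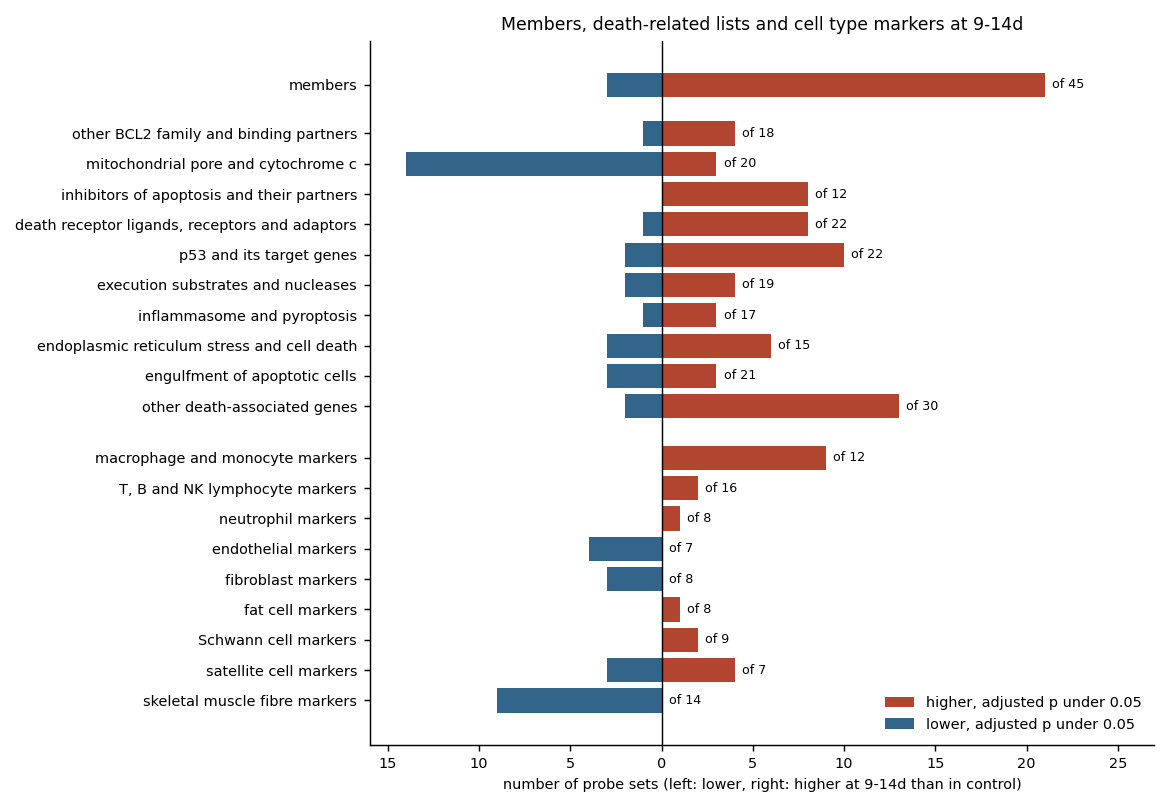
Number of probe sets up-regulated (right of 0) and down-regulated (left of 0) at 9-14d against control among the members, the 10 other death-related lists and 9 sets of cell type markers, with the number measured at the end of each bar. Of the 45 members 21 were higher and 3 lower, and of 20 mitochondrial pore probe sets 3 were higher and 14 lower.

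Markers of some cell types changed beside these results. The table holds changes and no levels, so the tissue could be checked only by changes. Of 14 muscle fibre probe sets, 8 were down-regulated at 5-8d and 9 at 9-14d, with log2 changes from -2.98 to 0.11 at 9-14d. Fibroblast markers were down-regulated most often at 5-8d, 6 of 8 with a median of -1.28, and 3 of 7 endothelial markers were down-regulated then. Of 7 endothelial markers 4, and of 8 fibroblast markers 3, were down-regulated at 9-14d, and of 7 satellite cell markers 4 were up-regulated and 3 down-regulated. Up-regulated at 9-14d were 2 of 16 lymphocyte, 1 of 8 neutrophil and 2 of 9 Schwann cell probe sets. Those shares, 12.5%, 12.5% and 22.2%, lie near the 17.3% of all probe sets. Down-regulated were 11.4% of all probe sets at 5-8d and 18.2% at 9-14d. What part these changes have in the changes of the members was not tested.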

How the data were processed

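RNA of 28 rats was hybridised to Affymetrix Rat Gene 1.0 ST arrays. Per the paper's methods the authors normalised the arrays by RMA, fitted 1 linear model and took moderated statistics from limma. The submitters' processing notes name MAS5 and RMA. The authors deposited 1 table of 26208 probe sets with log2 changes of each duration group against control, and its first line calls them lowess normalized ratios. The deposited p-values are adjusted by Benjamini-Hochberg within each comparison. These comparison values were used because they are the measurements the member rule names, and signals of single rats were not used here, so the limma fits planned could not be run and depth cannot be given. The number of rats limits the precision, and p-values weigh each difference against the spread between rats within groups. That spread is pooled over all groups and moderated across probe sets. Within a group it also holds differences of duration.

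The adjustment was undone, and each p-value turned into a statistic at 28.26 degrees of freedom (24 residual and 4.26 prior), the number at which the 3 comparisons give 1 within-group SD per probe set. Standard errors, 95% intervals and the 3 comparisons between durations followed from that SD, with Benjamini-Hochberg adjustment over all 26208 probe sets. Recomputed adjusted p-values changed 0 calls, and the steps were tested on simulated data. Adjusted p-values against control are the deposited ones, and those between durations were computed. A value passed at an adjusted p under 0.05; a 2-fold minimum, as in the study's methods, is given beside it.

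Members, lists and tests were chosen with earlier results of these data known. Some genes under the rule are not reported here and are left out of every member count. Each other member gene is named, with full values where it passed against control. From the other death-related lists, the 2 highest and 2 lowest passing probe sets at 9-14d are named. The remaining genes named there or in comparisons between durations were chosen after their values were seen. Probes were counted as matching by the table's transcript assignments. Alternatives were a 2-fold minimum, an adjusted p under 0.01, joint adjustment, probe sets with a symbol, of 1 gene or not cross-hybridising, counts by gene, centring, and 24 degrees of freedom. Python with numpy 2.4.6, pandas 2.3.3, scipy 1.17.1 and matplotlib 3.10.9 was used, and limma 3.58.1 in R 4.3.3 for the simulated test.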

Additional observations from a re-analysis of the deposited data

Results flagged for a closer look

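Effects against control that differed between durations were singled out where the difference itself had an adjusted p under 0.05, and these are 50 values from 32 of the 45 probe sets. From 6h-4d to 5-8d, the log2 differences of the 19 higher probe sets were Cidea 1.68, Siva1 1.23, Pdcd6 1.11, Aatf 0.85, Nol3 0.83, Bcl2l11 0.74, Htra2 0.63, Bid 0.61, Bak1 0.56, Apaf1 0.54, Cflar 0.54, Xiap (well matched) 0.49, Diablo (chromosome 5) 0.46, Casp9 0.45, Diablo (chromosome 12) 0.44, Bax 0.38, Endog (few probes matching) 0.35, Bcl2l2 0.33 and Casp6 0.29. The 3 lower ones were Dapk1 -1.24, Endog (all probes matching) -0.85 and Bcl2 -0.51. From 6h-4d to 9-14d, the log2 differences of the 24 higher probe sets were Siva1 1.23, Casp4 1.20, Cidea 1.14, Bcl2a1d 1.00, Bcl2l11 0.93, Pdcd6 0.89, Aatf 0.83, Casp12 0.82, Htra2 0.79, Casp1 0.69, Diablo (chromosome 12) 0.62, Diablo (chromosome 5) 0.61, Cflar 0.52, Apaf1 0.47, Bak1 0.44, Casp8 0.41, Casp6 0.39, Casp9 0.36, Fas 0.32, Casp2 0.26, Bax 0.25, Endog (few probes matching) 0.25, Bcl2l2 0.24 and Bad 0.22. The 4 lower ones were Dapk1 -1.08, Endog (all probes matching) -0.70, Bik -0.30 and Mcl1 (few probes matching) -0.20. Dapk1 and the well-matched Endog probe set were lower in both comparisons, which share the 6h-4d group. Single rats could not be examined for values far from the rest of their group, since the table holds group comparisons.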

How the results depend on the processing

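The number of member probe sets passing at 6h-4d depended most on the settings. It was 2 in the deposited values, 1 with a 2-fold minimum, 0 at an adjusted p under 0.01, and 6 when the 3 comparisons were adjusted jointly. Joint adjustment added Endog as lower and Aatf, Bcl2l1 and Mcl1 (few probes matching) as higher. A 2-fold minimum left 7 of the 16 at 5-8d and 7 of the 24 at 9-14d, and an adjusted p under 0.01 left 14 of the 24 at 9-14d and 16 of the 28 between 6h-4d and 9-14d. The other counts stayed within 1.5 times the reported ones with only probe sets that have a symbol, that name 1 gene, that are not marked as cross-hybridising or whose probes mostly match the member (the last chosen after seeing the data), counted by gene, after centring, and with 24 degrees of freedom. Among the 135 single values, 0 that passed changed sign, and 4 that did not pass did so on centring (Bcl2 and Bcl2a1d at 5-8d, Diablo on chromosome 12 at 6h-4d and Fadd at 9-14d), all of them within 0.030 of 0 before it. Centring took away the calls of Bik and Aifm1 at 9-14d and added 5, among them Fas and Casp8 at 9-14d and Xiap at 5-8d, and joint adjustment took away 3, Bcl2l2 and Nol3 at 9-14d and Bcl2l11 at 5-8d. Leaving out single rats could not be run on a table of comparisons. No paired analysis was possible because no replicate number occurs in more than 1 group. The 5-8d group has 4 rats, which widens every interval that involves it.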
